A study of Mus musculus with 12 samples.

Results

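The genes of 9 transcription factors that shape dendritic cell lineages, Irf4, Irf8, Batf3, Zbtb46, Id2, Spi1, Klf4, Cebpa and Cebpb, were followed through RNA-seq data of bone marrow-derived dendritic cells (BMDCs). They were taken by gene symbol, and all 9 were found among the 41709 genes counted and passed the filter on low counts in every comparison. BMDCs were grown from mouse bone marrow for 10 days with the growth factor GM-CSF, enriched for MHCII+ cells, and left unstimulated or given 100 ng/mL LPS, the bacterial cell wall component sensed by TLR4, for 24 h according to the library labels. The groups were CD18fl/fl unstimulated, CD18fl/fl LPS, CD18CD11c cKO unstimulated and CD18CD11c cKO LPS, with 3 libraries each. All mice carried floxed alleles of Itgb2, which encodes CD18, the β2 integrin chain. The cKO mice also carried Cre under the CD11c promoter, which is active in dendritic cells and in some other myeloid cells, so that deletion follows CD11c expression and need not be complete. The labels number the libraries 1 to 3 within each group and do not say whether these were separate mice or cultures, so p-values measure the spread between these libraries, which may be technical.

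Dendritic cells arise from myeloid progenitors in which PU.1, the product of Spi1, and C/EBPα open the myeloid program. IRF8 with BATF3 and ID2 is required for the conventional type 1 lineage (cDC1), IRF4 and KLF4 serve type 2 cells (cDC2), and ZBTB46 marks conventional dendritic cells and their committed precursors. C/EBPβ and KLF4 are also used by monocytes and macrophages, which share GM-CSF cultures with dendritic cells.

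Total gene reads per library were between 29689149 and 34037178, and a floor of 3 reads corresponded to 0.0752 to 0.135 CPM. The floor covers counting error only, since reads were amplified by PCR without molecular identifiers. CPM are read counts relative to library sizes scaled to a fixed total by TMM, edgeR's trimmed mean of log ratios, over all 12 libraries. Itgb2 checked the labels with 394 ± 23.0 CPM (SD, n = 3) in unstimulated CD18fl/fl and 158 ± 34.8 CPM in unstimulated CD18CD11c cKO BMDCs, and with 202 ± 56.3 and 108 ± 15.6 CPM after LPS. Its reads did not disappear, and its fall of 1.26 on the log2 scale in the unstimulated state had an adjusted p of 0.0887 without and 0.0039 with the replicate block described below. After LPS the log2 change by edgeR was -0.93 without the block (adjusted p = 0.428) and -0.91 with it (adjusted p = 0.0201). Counted on whole genes, these values cannot separate cells without deletion from transcripts that lack the floxed exon. Library size scaling in place of TMM moved the median log2 change of all genes from -0.02 to -0.32 for LPS in CD18fl/fl, from -0.01 to -0.23 for LPS in cKO, from -0.05 to -0.44 for genotype in unstimulated cells and from -0.11 to -0.37 for genotype after LPS. Higher genes were then 32.0% of those called for LPS in CD18fl/fl (53.0% with TMM) and 38.3% in cKO (55.9% with TMM). Changes below are relative to TMM.

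The third library of each group stood apart from the other two in 4 of the 9 factors. Irf8 was lower in replicate 3 than in replicates 1 and 2 in 4 of 4 groups, by a mean of -2.70 on the log2 scale, and Batf3 likewise by -1.75. Irf4 and Cebpb were higher in replicate 3 in 4 of 4 groups, by means of 1.36 and 1.39. Of 13752 genes, 15.7% were below and 17% above in 4 of 4 groups, and 7.61% and 8.99% were so with a mean beyond -1 or 1, so such a pattern was common in these libraries. For the other 5 factors the mean difference was between -0.38 (Id2) and 0.03 (Cebpa).

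**Figure D1:**
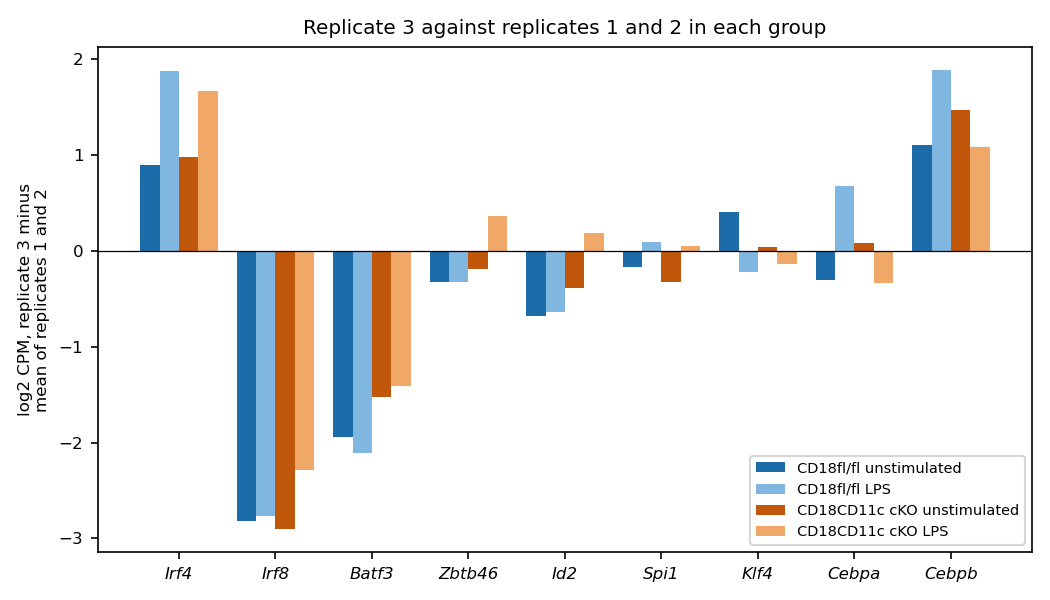
Log2 CPM of replicate 3 minus the mean of replicates 1 and 2 (y axis) for each factor (x axis), with 1 bar per group. The 4 bars of Irf8 and of Batf3 all lie below 0, with means of -2.70 and -1.75, and those of Irf4 and Cebpb all lie above it.

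Cell type marker lists moved with the replicate number too. In the unstimulated state, the summed level of 12 mature dendritic cell markers (0 of 12 under 1 CPM) was 1881 and 2083 CPM in the replicate 3 libraries and 5423 to 7227 CPM in the other 4. After LPS replicate 3 had the highest sum of each genotype, with 17386 against 15824 and 16914 CPM in CD18fl/fl and 19310 against 15392 and 13584 CPM in cKO. Ccl22 carried this order, with 7810 against 2374 and 2187 CPM in CD18fl/fl and 7815 against 1761 and 1507 CPM in cKO. Ccr7 and Cd83 were lowest in replicate 3 of both LPS groups, while Cd40, Cd80 and Cd274 were highest there. In the unstimulated state, 9 cDC2 markers summed to 3526 and 3062 CPM in the replicate 3 libraries against 1110 to 1331 CPM in the other 4. Most of this was Mgl2, with 2089 against 371 and 299 CPM in CD18fl/fl and 1691 against 672 and 333 CPM in cKO. Clec12a went the other way in CD18fl/fl, with 17.9 CPM in replicate 3 and 95.1 and 76.0 CPM in replicates 1 and 2. The 10 cDC1 markers summed to 690 and 492 CPM against 191 to 243 CPM, a sum made mostly of Naaa, with 623 CPM in replicate 3 and 202 and 172 CPM in replicates 1 and 2 of unstimulated CD18fl/fl cells. In each group 3 to 5 of those 10 markers were under 1 CPM. B cell markers summed to 1.85 to 3.69 CPM in replicate 3 and to 27.5 to 422 CPM in the other 8 libraries. In unstimulated CD18fl/fl cells, macrophage and monocyte markers summed to 9077 CPM in replicate 3 against 33238 and 34238 CPM. Most of this was Lyz2, with 6933 against 30299 and 31111 CPM. The other markers of that list went both ways, with Csf1r at 188 against 419 and 561 CPM and C1qc at 341 against 207 and 217 CPM. The part of these cells in the levels of the factors was not tested, and in bulk samples fewer cells of a type and less RNA per cell cannot be told apart. Libraries with the same number deviated from their group means together, replicate 3 most clearly. Replicates 1 and 2 also did so across numbers, so pairing these by number is an assumption. Each comparison was fitted both ways, ignoring the replicate number and using it as a block that compares libraries within a number.

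Promoter sequences are shown for the factors with the widest spread between replicate numbers or states that are also 2 pairs of relatives, Irf8 with Irf4 and Cebpa with Cebpb. They are the 250 bases before the gene start in RefSeq (GRCm39, forward strand in each case), in lower case, with the letters TATAAA in capitals.
Irf8, chr8:121462847-121463096: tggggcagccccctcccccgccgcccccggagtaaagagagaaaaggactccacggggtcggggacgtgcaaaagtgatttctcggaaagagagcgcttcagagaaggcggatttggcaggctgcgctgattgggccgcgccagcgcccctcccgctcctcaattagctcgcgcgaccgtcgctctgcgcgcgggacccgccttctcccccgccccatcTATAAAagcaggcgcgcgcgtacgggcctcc
Irf4, chr13:30932966-30933215: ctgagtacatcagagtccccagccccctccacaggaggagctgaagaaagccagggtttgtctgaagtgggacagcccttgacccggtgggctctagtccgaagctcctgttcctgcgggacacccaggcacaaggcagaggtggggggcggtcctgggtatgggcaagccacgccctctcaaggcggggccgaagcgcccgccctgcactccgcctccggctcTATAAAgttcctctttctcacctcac
Cebpa, chr7:34818468-34818717: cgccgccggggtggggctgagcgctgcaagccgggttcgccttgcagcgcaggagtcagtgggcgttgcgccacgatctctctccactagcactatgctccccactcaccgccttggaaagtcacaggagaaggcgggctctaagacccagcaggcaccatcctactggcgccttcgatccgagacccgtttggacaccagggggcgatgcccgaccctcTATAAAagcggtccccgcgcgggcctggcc
Cebpb, chr2:167530585-167530834: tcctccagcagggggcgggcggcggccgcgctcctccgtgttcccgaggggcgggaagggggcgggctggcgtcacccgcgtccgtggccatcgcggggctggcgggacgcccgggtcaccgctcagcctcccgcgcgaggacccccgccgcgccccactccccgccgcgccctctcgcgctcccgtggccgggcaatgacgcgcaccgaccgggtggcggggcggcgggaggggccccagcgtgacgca

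The letters TATAAA began 31 bases before the start in Irf8, 26 in Irf4 and 30 in Cebpa, and did not occur in the window of Cebpb. On either strand they occurred in 12.3% of 32536 such windows. The window of Cebpb was also the richest of the 4 in G and C (81.6%, against 67.2% in Irf8, 66.4% in Cebpa and 63.6% in Irf4). On either strand, none of the 4 windows held the interferon-stimulated response element (2.98% of all windows), the ETS-IRF composite element (2.31%), the kappa B element (1.21%), the C/EBP letters TTGCNNAA (9.57%), the AP-1 letters TGANTCA (6.73%), the E box CACCTG (17.3%) or the PU.1 letters GAGGAAGT (2.45%). RefSeq windows were matched for 8 of the 9 factors, 9 windows in all, since Irf8 has a second one, and none was matched for Spi1. Among the other windows, TGANTCA and CACCTG were found in Zbtb46, and CACCTG in the second window of Irf8. These are matches of letters, not binding sites.

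Levels per length were compared within unstimulated CD18fl/fl BMDCs as CPM per kilobase of exon. Irf8 had 295 ± 205 CPM per kilobase (SD, n = 3), Id2 159 ± 39.5 and Spi1 103 ± 6.90. Batf3 had 44.7 ± 25.5, Cebpb 33.9 ± 16.5 and Cebpa 22.7 ± 5.71 CPM per kilobase. The lowest were Irf4 with 8.94 ± 3.49, Klf4 with 5.10 ± 0.87 and Zbtb46 with 3.44 ± 0.48 CPM per kilobase. Neighbours in this order whose libraries overlapped were Irf8 and Id2, Batf3 and Cebpb, and Cebpb and Cebpa. By group means after LPS, Batf3 took the third place in both genotypes (105 ± 63.2 CPM per kilobase in CD18fl/fl and 186 ± 85.1 in cKO) and Klf4 the last (0.93 ± 0.10 and 0.88 ± 0.25), while Irf8 stayed first with 924 ± 649 and 745 ± 479. Replicate 3 differed, with Id2 above Irf8 in every group (201 against 189 CPM per kilobase in CD18fl/fl LPS). There Batf3 was at 32.6, below Spi1 (61.6) and Cebpb (102). After LPS, neighbours overlapped at 5 steps of the order in CD18fl/fl and at 5 in cKO BMDCs, and in unstimulated cKO BMDCs at 6.

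**Figure D2:**
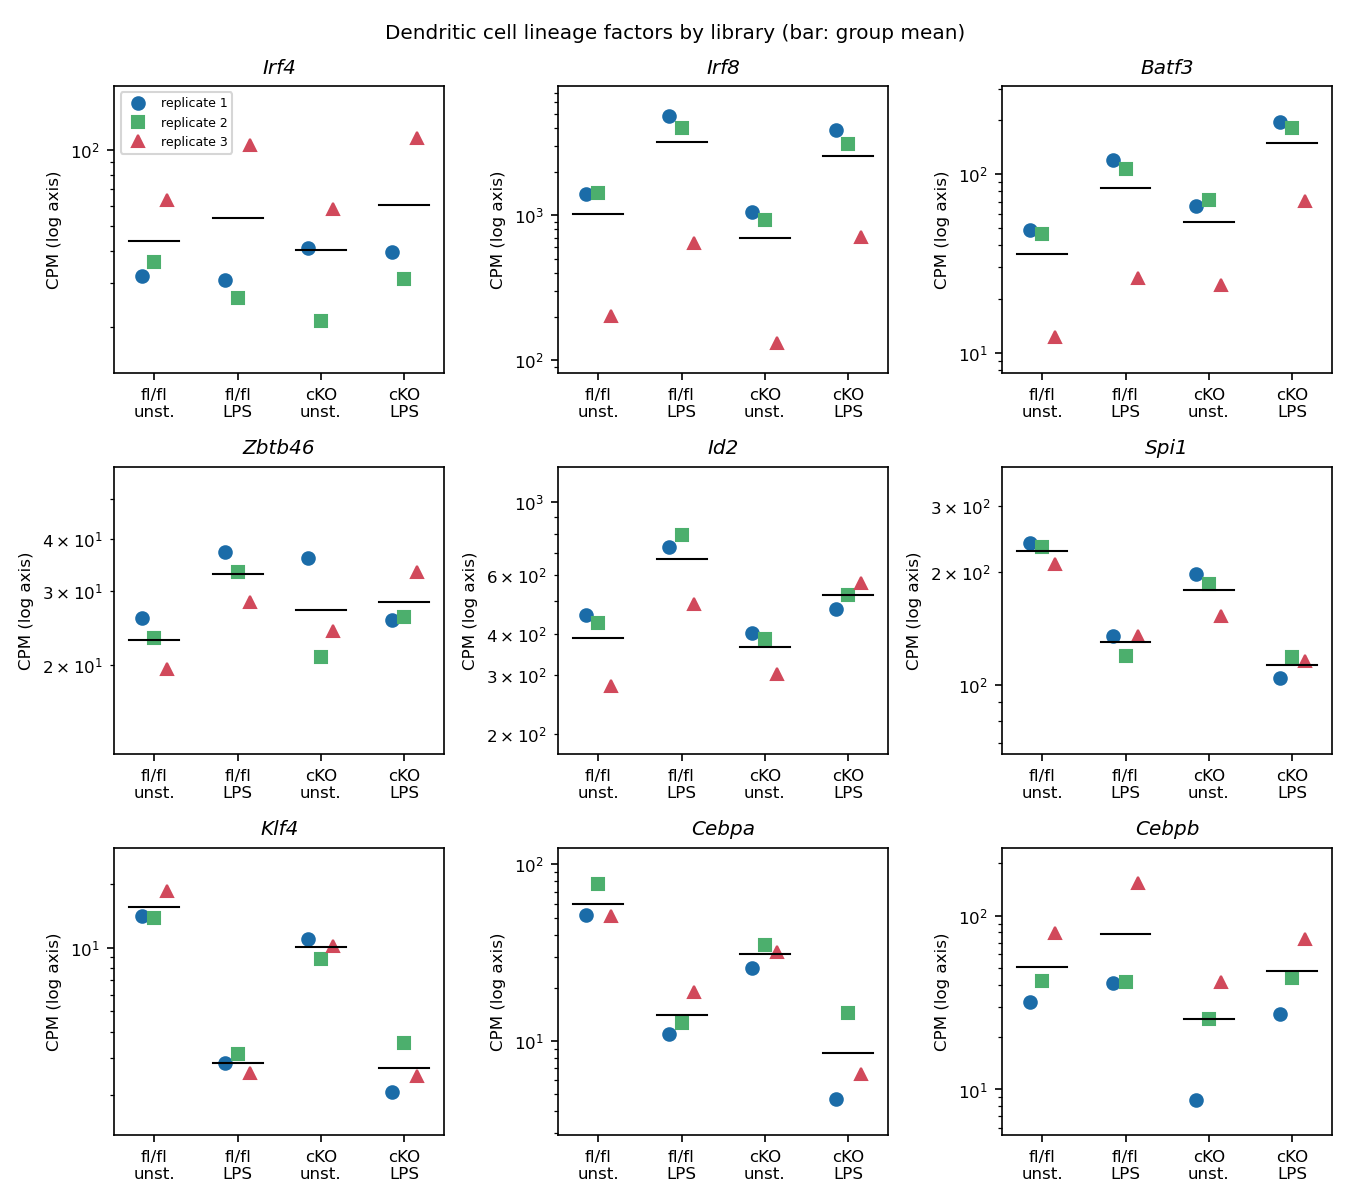
CPM of the 9 factors in each of the 12 libraries (log y axis, scaled for each gene), by group (x axis, unst. for unstimulated) and replicate (colour and shape), with a bar at the group mean. Klf4 and Cebpa were lower in each LPS library than in any unstimulated library of the same genotype, and the replicate 3 libraries of Irf8 and Batf3 lay below the others of their group.

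The effect of LPS was addressed first, within each genotype. In CD18fl/fl BMDCs, 2 of the 9 factors, Klf4 and Cebpa, fell and 0 rose (edgeR's quasi-likelihood test, adjusted p under 0.05), against 1.83% of 12744 genes called lower and 2.06% called higher. With the replicate block, 2 fell and 2 rose, Irf8 and Batf3, against 6.43% and 6.33% of all genes. In cKO BMDCs, 1 factor, Klf4, fell without the block (1.76% of 12687 genes lower, 2.23% higher). With the block, Klf4, Cebpa and Spi1 fell and Irf8, Batf3 and Cebpb rose (9.93% and 10.2%). The 3 libraries of each state did not overlap for 5 factors in CD18fl/fl (2 higher, with 13.6% of all genes, and 3 lower, with 15.9%) and for 4 in cKO (1 higher, 14.8%, and 3 lower, 13.4%). All 3 same-numbered differences were positive in 25.5% and negative in 29.2% of genes in CD18fl/fl, and in 30.1% and 27.4% in cKO. The DESeq2 count of factors with the block was 6 in each genotype. That fit called far more genes, 1598 higher and 1533 lower of 13789 in CD18fl/fl, and 1732 and 1645 of 13978 in cKO. Cell type markers moved with LPS in the same blocked fits. Of 16 macrophage and monocyte markers, 8 fell and 1 rose in CD18fl/fl (median -1.57) and 9 fell and 3 rose in cKO (median -1.62). Of the cDC2 markers, 5 of 9 and 7 of 8 tested fell and 0 rose (medians -2.86 and -2.84), and of 12 mature dendritic cell markers 7 and 6 rose and 0 fell (medians 1.67 and 1.45). Their part in the changes of the factors, the falls of Klf4 and Cebpa among them, was not tested.

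**Figure D3:**
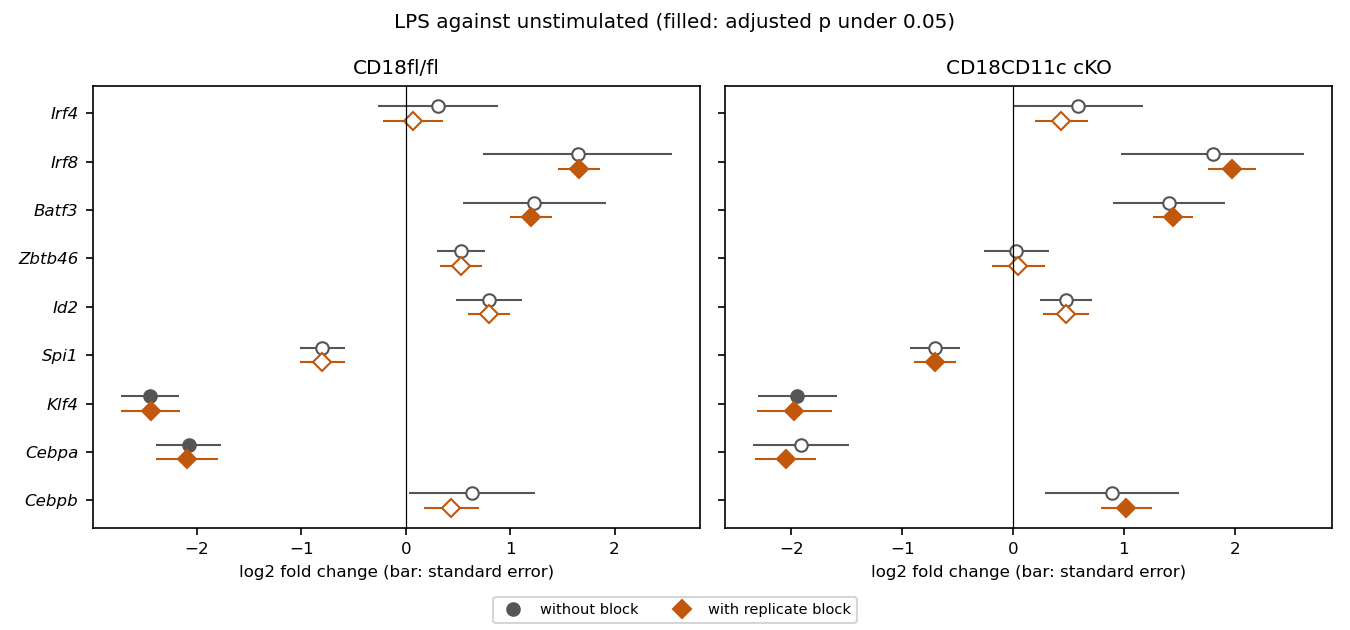
Log2 fold change of LPS-treated against unstimulated BMDCs (x axis, bars are standard errors) for each factor in CD18fl/fl (left) and CD18CD11c cKO BMDCs (right), from edgeR without (circles) and with the replicate block (diamonds), filled where the adjusted p was under 0.05. The estimates of Irf8 and Batf3 are alike in both fits, and their standard errors are smaller with the block.

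Irf8 lies at chr8:121463097-121483433 (GRCm39, plus strand, ENSMUSG00000041515). Its protein directs cDC1 and monocyte fate and transcribes interferon-responsive genes. Unstimulated libraries 1, 2 and 3 held 1408, 1433 and 202 CPM in CD18fl/fl and 1047, 922 and 131 CPM in cKO BMDCs. After LPS they held 4862, 4014 and 649 CPM in CD18fl/fl and 3859, 3111 and 709 CPM in cKO BMDCs. Each LPS library was above the unstimulated library of its number, yet the groups overlapped, with replicate 3 low in both states. The same-numbered log2 differences were 1.79, 1.49 and 1.69 in CD18fl/fl and 1.88, 1.75 and 2.44 in cKO. Without the block the log2 change was 1.65 (SE 0.91, adjusted p = 0.315) in CD18fl/fl and 1.80 (SE 0.83, adjusted p = 0.266) in cKO. With it, the changes were 1.66 (SE 0.20, adjusted p = 0.0077) and 1.97 (SE 0.22, adjusted p = 0.0026). In replicates 1 and 2 alone and without a block, edgeR gave 1.64 (adjusted p = 4.97e-05) and 1.72 (adjusted p = 0.0067). That fit called many genes, 3000 higher and 3140 lower of 12924 in CD18fl/fl, and 1021 and 1028 of 12872 in cKO. With the block, the call held without any 1 of the 3 replicate numbers in both genotypes. The genes most like Irf8 over the 12 libraries, by Pearson's r of log2 CPM, were Tapbpl (0.99), Map3k14 (0.99) and Rab26 (0.99), a description in which the points share the offset of replicate 3.

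Batf3 (chr1:190830044-190841142, plus strand, ENSMUSG00000026630) encodes the AP-1 family partner of IRF8 and IRF4 in dendritic cells. Unstimulated libraries 1 to 3 held 48.7, 46.4 and 12.3 CPM in CD18fl/fl and 66.0, 71.2 and 23.9 CPM in cKO BMDCs. After LPS the values were 119.5, 106.6 and 26.1 CPM in CD18fl/fl and 195.0, 181.3 and 70.6 CPM in cKO BMDCs. As for Irf8, all 6 same-numbered differences were positive, from 1.08 to 1.29 in CD18fl/fl and from 1.35 to 1.56 in cKO on the log2 scale. With the block, Batf3 rose by 1.20 (SE 0.21, adjusted p = 0.0197) and 1.44 (SE 0.18, adjusted p = 0.0034), and without it the estimates of 1.23 and 1.41 had adjusted p = 0.322 and 0.170. With the block and 1 replicate number left out, the call held in 3 of 3 cases in cKO and in 1 of 3 in CD18fl/fl, without replicate 3. Within groups, Irf8 and Batf3 had a Pearson's r of 0.99 over the 12 libraries, given as a description, since replicate 3 carries most of this spread. Gnb4 (0.99), Krt222 (0.97) and Tmem35b (0.97) were most like Batf3.

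Irf4 (chr13:30933209-30950959, plus strand, ENSMUSG00000021356), the relative of Irf8 used by cDC2, did not follow it. Unstimulated libraries held 32.0, 36.1 and 63.4 CPM in CD18fl/fl and 41.1, 21.1 and 58.4 CPM in cKO BMDCs. After LPS they held 30.7, 26.1 and 104.7 CPM and 39.5, 31.1 and 111.9 CPM, respectively. Replicate 3 was the highest library of every group, and the states overlapped in both genotypes. The log2 change with LPS was 0.31 (SE 0.58, adjusted p = 0.783) in CD18fl/fl and 0.58 (SE 0.58, adjusted p = 0.626) in cKO, and in replicates 1 and 2 alone the former was -0.26. Intron reads of Irf4 were 76 to 177 in the replicate 3 libraries and 0 to 59 in the others. Shroom3 (0.96), Raph1 (0.94) and Socs3 (0.93) were most like Irf4 over the 12 libraries.

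The ratio of Irf4 to Irf8 reads within a library does not depend on scaling. Its log2 value was -4.15 ± 2.15 (SD, n = 3) in unstimulated and -5.73 ± 2.69 in LPS-treated CD18fl/fl BMDCs, and -3.76 ± 2.28 and -5.30 ± 2.29 in cKO. All 6 same-numbered differences were negative, between -1.95 and -0.96 in CD18fl/fl and between -1.94 and -1.19 in cKO. The exact permutation test (two-sided, 3 against 3 libraries) gave p = 0.5 in both genotypes (adjusted p = 0.72 over 12 tests of 3 ratios), and it cannot go below 0.1. It ignores the replicate numbers, while replicate 3 had the highest ratio of every group, at -1.67 and -2.63 in CD18fl/fl and -1.17 and -2.66 in cKO.

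Zbtb46 (chr2:181029555-181101219, minus strand, ENSMUSG00000027583) was the factor with the lowest level per length in unstimulated CD18fl/fl BMDCs. Unstimulated libraries held 25.9, 23.1 and 19.5 CPM in CD18fl/fl and 36.1, 20.9 and 24.1 CPM in cKO BMDCs. After LPS, CD18fl/fl libraries held 37.2, 33.4 and 28.2 CPM and cKO libraries 25.6, 26.0 and 33.3 CPM. In CD18fl/fl, each LPS library exceeded each unstimulated one and the 3 same-numbered log2 differences were 0.52, 0.53 and 0.53, but the change of 0.53 did not pass the test (SE 0.23, adjusted p = 0.215, and 0.127 with the block). In replicates 1 and 2 alone it passed at 0.52 (adjusted p = 0.0278), in a fit that called 3000 of 12924 genes higher and 3140 lower. The cKO libraries overlapped, with a log2 change of 0.03 (SE 0.29, adjusted p = 0.966) that was -0.17 with library size scaling. Its closest genes, Enox2 (0.85), Myd88 (0.82) and Apof (0.81), were less alike than those of any other factor.

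Id2 (chr12:25143798-25147139, minus strand, ENSMUSG00000020644) encodes an inhibitor of E proteins needed for cDC1 over plasmacytoid fate. Its unstimulated libraries held 455, 432 and 278 CPM in CD18fl/fl and 402, 387 and 302 CPM in cKO BMDCs. After LPS they held 731, 794 and 490 CPM and 475, 522 and 569 CPM. LPS libraries lay above all unstimulated ones in both genotypes. The log2 change was 0.79 (SE 0.32, adjusted p = 0.189) in CD18fl/fl and 0.48 (SE 0.24, adjusted p = 0.303) in cKO, and neither passed with the block (adjusted p = 0.0510 and 0.151). Replicates 1 and 2 alone gave 0.78 (adjusted p = 0.0026) in CD18fl/fl and 0.23 (adjusted p = 0.437) in cKO. These fits called 3000 of 12924 genes higher in CD18fl/fl and 1021 of 12872 in cKO. A930007I19Rik (0.96), Tent5c (0.95) and Tbc1d17 (0.94) were most like Id2.

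Spi1 (chr2:90912735-90946101, plus strand, ENSMUSG00000002111) encodes PU.1, an ETS factor needed throughout myeloid development. Unstimulated libraries held 239, 233 and 210 CPM in CD18fl/fl and 198, 185 and 153 CPM in cKO BMDCs. LPS-treated libraries held 135, 120 and 135 CPM and 105, 119 and 116 CPM. Every LPS library was below every unstimulated library of its genotype. The log2 change was -0.80 (SE 0.22) in CD18fl/fl, with adjusted p = 0.0924 without and 0.0585 with the block, and -0.71 (SE 0.22) in cKO, with adjusted p = 0.129 and 0.0427. With the exon length offset added to the block, the change in cKO was -0.65 (adjusted p = 0.0563), and with the block and 1 replicate number left out it passed only without replicate 3. In replicates 1 and 2 alone, the log2 changes of Spi1 were -0.89 (adjusted p = 0.00083) and -0.88 (adjusted p = 0.0284), and both passed. These fits called 3140 of 12924 genes lower in CD18fl/fl and 1028 of 12872 in cKO. Plxnb3 (0.98), Il17ra (0.97) and Nadk (0.97) were most like Spi1.

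Klf4 (chr4:55527143-55532466, minus strand, ENSMUSG00000003032) showed the largest fall of the 9 factors with LPS in CD18fl/fl BMDCs. Its unstimulated libraries held 14.2, 13.9 and 18.6 CPM in CD18fl/fl and 11.0, 8.87 and 10.2 CPM in cKO BMDCs. After LPS, 2.83, 3.12 and 2.54 CPM and 2.07, 3.55 and 2.46 CPM were left. The states did not overlap in either genotype, and replicate 3 did not stand apart. Klf4 fell in both, with log2 changes of -2.45 (SE 0.28, adjusted p = 0.0144) in CD18fl/fl and -1.95 (SE 0.36, adjusted p = 0.0374) in cKO, and passed with the block as well. Leaving out 1 library at a time kept the call in 2 of 6 cases in CD18fl/fl and in 1 of 6 in cKO, those without a replicate 3 library, and the change stayed between -2.53 and -2.31 and between -2.16 and -1.78. LPS-treated libraries rested on 51 to 100 reads of this gene. In cKO LPS replicate 1, 26 of 51 reads were intronic. Among the genes most like it were Mapk14 (0.97) and Ptpn22 (0.97).

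Cebpa (chr7:34818718-34821353, plus strand, ENSMUSG00000034957) encodes C/EBPα, needed at the progenitor stage. Unstimulated libraries held 51.5, 77.3 and 51.0 CPM in CD18fl/fl and 26.1, 34.8 and 31.9 CPM in cKO BMDCs. After LPS they held 10.9, 12.6 and 18.8 CPM and 4.70, 14.4 and 6.54 CPM. No LPS library reached the lowest unstimulated library of its genotype. In CD18fl/fl, Cebpa fell by 2.08 (SE 0.32, adjusted p = 0.0224) on the log2 scale. In cKO the log2 change of -1.91 (SE 0.43) had adjusted p = 0.0566 without and 0.0044 with the block, where it was -2.05 (SE 0.27). In CD18fl/fl the call was kept in 2 of 6 cases when 1 library was left out, with changes between -2.35 and -1.86. An antisense gene, Gm45091, overlaps 313 bases of Cebpa and held 0 to 24 reads. Sbk1 (0.97), Ddx51 (0.97) and Evi2b (0.97) were most like Cebpa.

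Cebpb (chr2:167530835-167532338, plus strand, ENSMUSG00000056501) encodes C/EBPβ, a factor of inflammatory myeloid genes. Its unstimulated libraries held 32.0, 41.9 and 79.0 CPM in CD18fl/fl and 8.76, 25.5 and 41.7 CPM in cKO BMDCs. After LPS the values were 40.8, 41.7 and 153 CPM and 27.2, 43.7 and 73.6 CPM. Replicate 3 was highest in every group, and the states overlapped. The log2 change was 0.63 (SE 0.61, adjusted p = 0.564) in CD18fl/fl and 0.89 (SE 0.61, adjusted p = 0.451) in cKO, where it was 1.02 (SE 0.23) and passed with the block (adjusted p = 0.0236). With library size scaling added to the block, that value was 0.81 (adjusted p = 0.0501). The files place 908 bases of Cebpb opposite the antisense gene Tmem189, which held 636 to 4098 reads. Since the sources do not state that reads were counted by strand, reads of the 2 genes in the shared stretch cannot be told apart. Mmp14 (0.98), Zcchc2 (0.96) and C3 (0.96) were most like Cebpb.

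The ratios of Cebpb to Cebpa and of Spi1 to Cebpa were higher after LPS in every same-numbered pair. The log2 ratio of Cebpb to Cebpa reads was -0.31 ± 0.82 (SD, n = 3) before and 2.22 ± 0.70 after LPS in CD18fl/fl BMDCs, and -0.55 ± 0.98 before and 2.54 ± 0.95 after LPS in cKO. Unstimulated and LPS-treated libraries did not overlap in either genotype. The differences of 2.53 and 3.09 each had p = 0.1 by the exact permutation test (adjusted p = 0.24), the smallest that 3 against 3 libraries allow. The log2 ratio of Spi1 to Cebpa likewise went from 1.95 ± 0.32 to 3.24 ± 0.39 and from 2.53 ± 0.35 to 3.89 ± 0.75, again with p = 0.1 by the exact permutation test (adjusted p = 0.24). The same ratio was higher in cKO by 0.58 in unstimulated cells (p = 0.1, exact permutation test, adjusted p = 0.24), and after LPS by 0.65 (p = 0.3, exact permutation test, adjusted p = 0.6), with 1 of 3 pairs in the opposite direction.

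**Figure D4:**
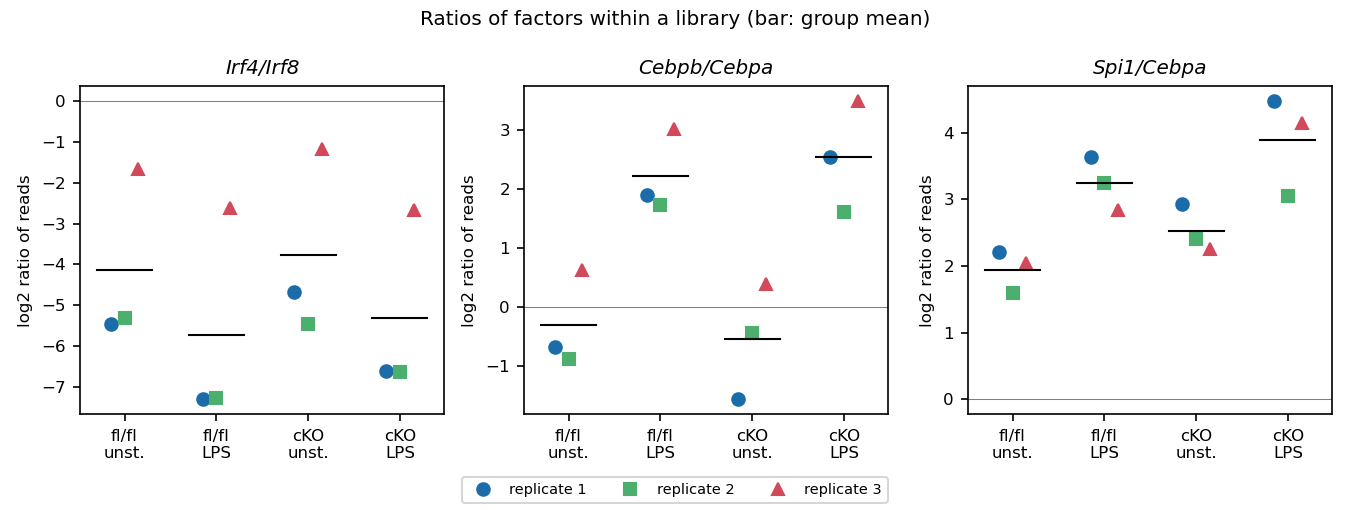
Log2 ratio of reads of 2 factors within each library (y axis) by group (x axis) and replicate (colour and shape), with a bar at the group mean. Cebpb exceeded Cebpa in all 6 LPS libraries, and Irf4 was below Irf8 in all 12 libraries.

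Other lineage factors, listed by cell type, were counted beside these 9. Without the block in CD18fl/fl BMDCs, LPS raised 1 of 6 further genes listed for cDC1 (Batf), 1 of 9 for cDC2 (Nr4a3) and 1 of 7 for plasmacytoid cells (Irf7). Of all genes, 2.06% were called higher in that fit. With the block, 3 of the 6 genes listed for cDC1 rose, a label of the list that these data did not test. These were Batf by 2.01 (SE 0.25, adjusted p = 0.0087), Nfil3 by 1.27 (SE 0.25, adjusted p = 0.0281) and Runx3 by 1.45 (SE 0.34, adjusted p = 0.0438) on the log2 scale. The same 3 rose in cKO, by 1.81, 1.24 and 1.94. Of all genes, the fits with the block called 6.33% higher and 6.43% lower in CD18fl/fl, and 10.2% and 9.93% in cKO. The median of the 6 was 0.90 and 0.93, beside -0.03 and -0.01 for all genes tested. The markers of the cDC1 lineage did not rise with these factors. Of 9 tested with the block, 0 rose and 3 fell in CD18fl/fl (median -2.12), and 0 rose and 2 fell in cKO (median -0.96). Among the 14 monocyte and macrophage factors 5 fell and 1 rose in each genotype with the block. Cebpd, a relative of Cebpa and Cebpb, fell in CD18fl/fl, at -2.25 (SE 0.32, adjusted p = 0.0121), and in cKO it was at -1.42 (SE 0.43, adjusted p = 0.0604). In both genotypes Nr1h3, a nuclear receptor of cholesterol handling, rose by 2.47 (SE 0.29) and 1.69 (SE 0.23). The median of the 14 was -1.17 and -0.97. Of 7 other Irf genes, Irf7, Irf1 and Irf9 rose in both genotypes, with Irf7, also on the plasmacytoid list, at 5.98 (SE 0.54) and 6.20 (SE 0.35). Of 8 receptors for growth factors and LPS, Csf1r, the receptor of M-CSF, fell, at -2.03 (SE 0.47, adjusted p = 0.0424) and -1.96 (SE 0.19, adjusted p = 0.0019). In cKO, Csf2ra, a receptor chain for GM-CSF, fell as well (-1.19, SE 0.20, adjusted p = 0.0097), and Cd14, a co-receptor for LPS, rose (1.67, SE 0.41, adjusted p = 0.0313). The 9 other Klf genes gave 1 call, Klf13 (lower in CD18fl/fl), and the 2 other Id genes tested gave none.

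**Figure D5:**
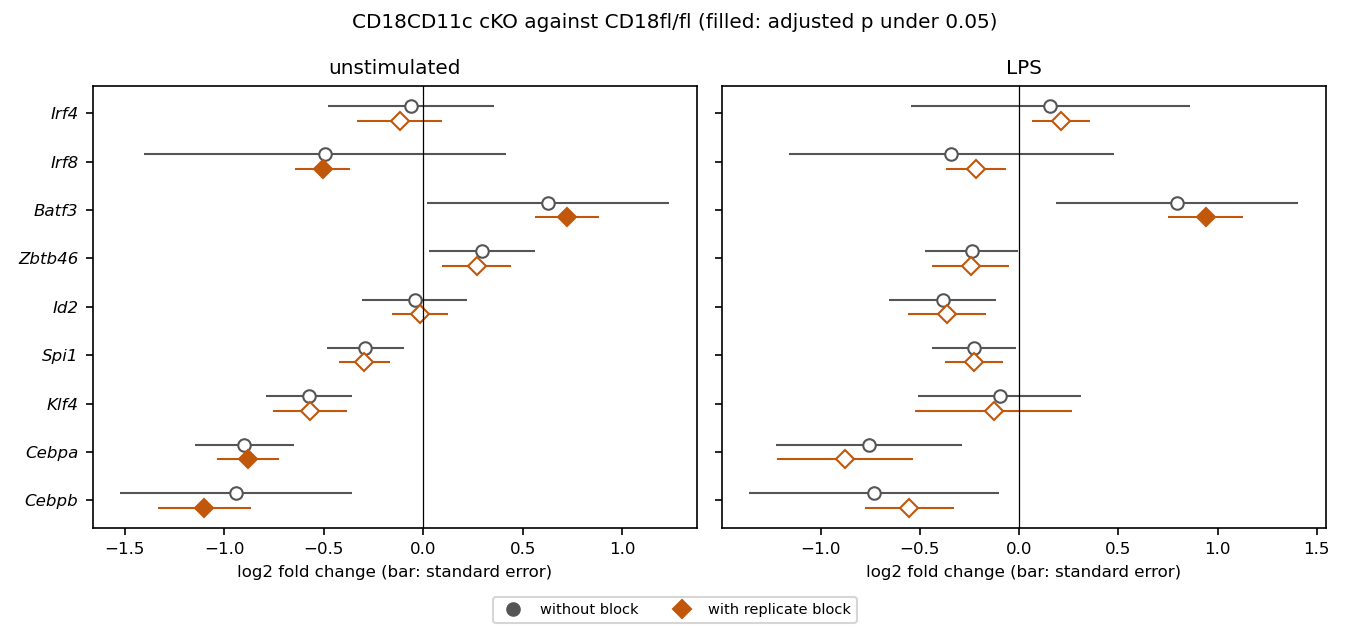
Log2 fold change of CD18CD11c cKO against CD18fl/fl BMDCs (x axis, bars are standard errors) for each factor in the unstimulated (left) and LPS-treated state (right), from edgeR without (circles) and with the replicate block (diamonds), filled where the adjusted p was under 0.05. Cebpa and Cebpb lie to the left of 0 and Batf3 to the right in both states.

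Loss of CD18 was addressed next, in unstimulated cells. Without the block, 0 of the 9 factors and 0 of 12876 genes passed by edgeR (0% of genes higher and 0% lower). At an unadjusted p under 0.05, 2159 genes were counted, Cebpa and Klf4 among them, and DESeq2 called 538 genes and none of the factors. With the replicate block, 3 factors were lower in cKO BMDCs, Cebpa, Cebpb and Irf8, and 1, Batf3, was higher, against 8.16% of genes lower and 12.1% higher. The cKO libraries did not overlap those of CD18fl/fl for Spi1, Klf4 and Cebpa, all lower (13.1% of genes lower, 11.7% higher). All 3 same-numbered differences were positive in 24% and negative in 33.9% of genes. These blocked calls rested on few libraries. Without replicate 2, 0 of the 9 factors passed with the block, beside 386 genes higher and 65 lower of 12978. Without replicate 1 only Batf3 did, beside 837 genes higher and 171 lower of 13082. Without replicate 3 the same 4 did, beside 1943 genes higher and 1544 lower of 13068, so the number of factors went with that of all genes.

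Cebpa was 59.9 ± 15.1 CPM in CD18fl/fl and 30.9 ± 4.48 CPM in cKO BMDCs (SD, n = 3). Its log2 change was -0.90 (SE 0.25, adjusted p = 0.169) without and -0.88 (SE 0.16, adjusted p = 0.0102) with the block, and all 3 same-numbered differences were negative (-0.98, -1.15 and -0.67). Cebpb was 51.0 ± 24.7 and 25.3 ± 16.5 CPM. The change of Cebpb was -0.94 (SE 0.58, adjusted p = 0.454) without and -1.10 (SE 0.23, adjusted p = 0.0187) with the block, from same-numbered differences of -1.86, -0.72 and -0.92. Both passed with the exon length offset added to the block as well, at -0.91 (adjusted p = 0.0152) and -1.46 (adjusted p = 0.0125).

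Irf8 and Batf3, which rose together with LPS, moved in opposite directions between the genotypes. For Irf8 the log2 change in cKO was -0.49 (SE 0.91, adjusted p = 0.825) without and -0.50 (SE 0.14, adjusted p = 0.0398) with the block, from differences of -0.43, -0.64 and -0.62. For Batf3 it was 0.63 (SE 0.61, adjusted p = 0.643) without and 0.72 (SE 0.16, adjusted p = 0.0215) with the block, from differences of 0.44, 0.62 and 0.95. When the length offset was combined with the block neither passed, at -0.41 (adjusted p = 0.0728) for Irf8 and 0.02 (adjusted p = 0.966) for Batf3. Batf3, with 801 bases of exon, is the shortest of the 9 factors. With library size scaling and the block, Irf8 was at -0.90 (adjusted p = 0.0084) and Batf3 at 0.33 (adjusted p = 0.168).

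For the remaining 5 factors no fit above gave a call in unstimulated cells, apart from library size scaling with the block, for which Klf4 (-0.96, adjusted p = 0.0111) and Spi1 (-0.69, adjusted p = 0.0095) passed. With TMM and the block, Klf4 was at -0.57 (SE 0.19, adjusted p = 0.0663) and Spi1 at -0.30 (SE 0.13, adjusted p = 0.143). Id2 was at -0.02 (SE 0.14), Irf4 at -0.12 (SE 0.21) and Zbtb46 at 0.27 (SE 0.17), and Zbtb46 turned to -0.12 with library size scaling and the block. With TMM and the block, 7 of 13 ETS factors and partners of PU.1 and the Irf proteins were lower, led by Fos (-1.71, SE 0.15, adjusted p = 0.0030), Jun (-0.92, SE 0.16, adjusted p = 0.0106) and Junb (-0.72, SE 0.13, adjusted p = 0.0112), and 1, Batf, was higher (0.78, SE 0.16, adjusted p = 0.0159), beside 8.16% of all genes lower and 12.1% higher. The median of the 13 was -0.57, beside -0.07 for all genes. Other lists also held lower genes and 0 higher ones in this fit. These were 6 of 14 monocyte and macrophage factors (median -0.60), 4 of 9 other Klf genes (median -0.71) and 4 of 9 genes listed for cDC2 (median -0.33). Of 8 growth factor and LPS receptors, 5 were lower (8.16% of all genes), among them Csf3r (-2.44, SE 0.34), Csf1r (-0.88, SE 0.17) and Flt3 (-1.34, SE 0.30), the receptors of G-CSF, M-CSF and FLT3 ligand. Neutrophil markers summed to 1721, 527 and 161 CPM in CD18fl/fl and 340, 446 and 110 CPM in cKO libraries, with 3 and 6 of the 14 under 1 CPM, and their part in the lower C/EBP genes was not tested.

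The genotypes were also compared after LPS. Without the block, 0 of 9 factors and 0 of 12441 genes passed by edgeR (0% in either direction), with 1212 genes and none of the factors at an unadjusted p under 0.05 and 150 genes and none of the factors by DESeq2. With the block, Batf3 alone passed, against 6.98% of genes higher and 3.16% lower. Its log2 change in cKO was 0.80 (SE 0.61, adjusted p = 0.729) without and 0.94 (SE 0.19, adjusted p = 0.0263) with the block, from same-numbered differences of 0.71, 0.77 and 1.43. Batf3 passed without replicate 3, as did Id2 at -0.65 (adjusted p = 0.0287), beside 883 genes higher and 517 lower of 12390. Neither passed without replicate 1 (3 genes higher and 0 lower of 12805) or replicate 2 (203 and 25 of 12866). Batf3 was at 0.38 (adjusted p = 0.252) when the length offset was added. All 3 same-numbered differences were positive in 23.1% and negative in 26.1% of genes. Cebpa was at -0.88 (SE 0.34, adjusted p = 0.148) and Cebpb at -0.55 (SE 0.22, adjusted p = 0.157) with the block. In both, replicate 2 was higher in cKO, by 0.20 and 0.07, and the other pairs were lower. Spi1 was the only factor whose groups did not overlap (lower in cKO, as in 8.09% of genes, with 9.51% higher), at -0.23 (SE 0.15, adjusted p = 0.357) with the block.

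Whether LPS acted on the factors differently in the 2 genotypes was tested as the interaction of genotype and LPS over all 12 libraries. By edgeR, 0 of 13752 genes passed without and with the block (97 and 272 at an unadjusted p under 0.05), while DESeq2 called 1 gene without and 130 with the block, none of the 9 factors in any of these fits. With the block, the interaction was 0.57 (SE 0.38) for Cebpb, 0.54 (SE 0.38) for Klf4, 0.38 (SE 0.25) for Irf8 and -0.42 (SE 0.30) for Zbtb46, each with an adjusted p of 1. A call in 1 genotype and not in the other, as for Cebpb and Spi1 with LPS, is therefore not shown to be a difference between the genotypes. The 4 comparisons share libraries in pairs, and their values are not independent of each other.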

How the data were processed

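MHCII+ BMDCs were sequenced by the authors as poly(A) RNA libraries with single-end reads, mapped and counted in CLC Genomics Workbench version 22.0 per the submitters' processing notes. The deposited files hold raw counts per gene (total and unique gene reads, whole numbers, no normalization). The paper names GRCm39 and the processing notes GRCm38, and the gene coordinates in the files are those of GRCm39. Counts include reads with several positions, and for the 9 factors total and unique reads were equal. Between 95.1% and 96.2% of all gene reads were unique. Whether counting used strand is not given in the sources used here. The paper speaks of overnight LPS where the labels give 24 h.

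Groups and replicate numbers came from the labels. The 6 libraries of a comparison were fitted with edgeR 4.0.16 (R 4.3.3), filterByExpr with a minimum count of 10, TMM, the quasi-likelihood test and Benjamini-Hochberg adjustment over all genes tested, at 0.05. Standard errors are the size of the log2 change divided by the square root of F. Same-numbered libraries correlated in their deviations from group means, at 0.265 to 0.716 over 12 pairs. Replicates 1 and 2 also correlated across numbers, at 0.154 to 0.334, and replicate 3 did so with neither. The block uses the replicate numbers as pairs, which for replicates 1 and 2 is an assumption that these values do not settle. Promoter windows were searched for letters on both strands. Ratios used exact permutation tests.

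The factors and lists were chosen with earlier results of these data known. All 9 factors were reported. From each list at most 3 genes per direction and comparison, by adjusted p, were named, and for each factor the 3 genes most alike over the libraries, except 1 gene that is not reported here. TATAAA was chosen after the sequences were seen. Alternatives were RLE and library size scaling, no filter, unique reads, DESeq2 1.42.0, the block, the block with an exon length offset (lowess, span 0.3), replicates 1 and 2 only, all 12 libraries, and each library left out. The block with 1 replicate number left out, with library size scaling and with DESeq2 were chosen after seeing the data. Protein sequences were not used here. The procedures were run on simulated data. Their spread within a replicate number was set lower than in these libraries, so they do not show how reliable the calls are.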

Additional observations from a re-analysis of the deposited data

How the results depend on the processing

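Among the changes of single factors under the alternatives, 782 kept their direction and side of the threshold, 89 passed only under the alternative, 14 no longer passed and 60 changed sign. The cause of the differences was not tested, beyond the fewer libraries in fits that leave some out. Depth limited Klf4 most, with 51 to 100 reads after LPS.

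For LPS in CD18fl/fl, 496 genes and 2 of the 9 factors were called without the block. Pairing by the replicate block gave 1627 genes and 4 factors, DESeq2 1794 genes, the exon length offset with the block 1744 and 5, replicates 1 and 2 only 6140 and 7, all 12 libraries 1068 genes, library size scaling with the block 1621 and 5, and DESeq2 with the block 3131 and 6. Leaving out 1 library gave 0 to 3268 genes and 0 to 3 factors. With the block, leaving out replicate 1 gave 930 genes and 3 factors, replicate 2 555 genes and replicate 3 6371 genes and 7 factors.

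For LPS in cKO, 506 genes and 1 factor were called. The block gave 2560 and 6, library size scaling 2 factors, no filter 805 and 2, DESeq2 1531 and 2, the length offset with the block 2542 and 5, replicates 1 and 2 only 2049 and 4, all 12 libraries 983 and 2, library size scaling with the block 2748 and 5, and DESeq2 with the block 3377 and 6. Leaving out 1 library gave 0 to 1033 genes and 0 to 1 factors. With the block, leaving out replicate 1 gave 836 genes and 3 factors, replicate 2 1364 and 5, and replicate 3 4057 and 6.

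For genotype in unstimulated cells, 0 genes and 0 factors were called by edgeR, with 2159 genes at an unadjusted p under 0.05. The block gave 2606 and 4, DESeq2 538 genes, the length offset with the block 1511 and 2, replicates 1 and 2 only 1383 genes, all 12 libraries 19 genes, library size scaling with the block 4583 and 5, and DESeq2 with the block 3036 and 4. With the block, leaving out replicate 1 gave 1008 genes and 1 factor, replicate 2 451 genes and 0 factors, and replicate 3 3487 and 4. Higher genes were 59.7% of those called with the block and 15.3% with library size scaling and the block.

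For genotype after LPS, 0 genes and 0 factors were called by edgeR, with 1212 genes at an unadjusted p under 0.05. The block gave 1262 and 1, no filter 1 gene, DESeq2 150 genes, the length offset with the block 989 genes, replicates 1 and 2 only 523 genes, all 12 libraries 45 genes, library size scaling with the block 2642 and 2, and DESeq2 with the block 1869 and 1. Leaving out 1 library gave 0 to 1 genes. With the block, leaving out replicate 1 gave 3 genes and 0 factors, replicate 2 228 genes and 0 factors, and replicate 3 1400 and 2. Higher genes were 68.9% of those called with the block and 22.3% with library size scaling and the block. For the interaction, 0 genes were called by edgeR (97 at an unadjusted p under 0.05), 1 by DESeq2, 1 with the block without replicate 3 and 130 by DESeq2 with the block.

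Signs changed as follows. For LPS in CD18fl/fl, Irf4 was -0.26 in replicates 1 and 2 only, -0.25 with library size scaling and the block and -0.26 with the block without replicate 3. For LPS in cKO, Zbtb46 was -0.17 with library size scaling, -0.24 in replicates 1 and 2 only, -0.16 with library size scaling and the block, and -0.051 and -0.20 with the block without replicate 2 or 3. For genotype in unstimulated cells, Zbtb46 was -0.10 with library size scaling and -0.12 with the block added, Irf4 0.093 with the length offset and the block and 0.18 with the block without replicate 2, and Id2 0.051 and 0.029 with the block without replicate 1 or 2. For genotype after LPS, Irf4 was -0.12 with library size scaling and -0.042 with the block added, and Klf4 0.042 with the block without replicate 1. The interaction of Cebpa was -0.54 with the block without replicate 2.

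With 1 library left out, the LPS change in CD18fl/fl ranged from -0.62 to 0.67 for Irf4 and from -0.30 to 1.09 for Cebpb, and in cKO from -0.15 to 0.27 for Zbtb46 and from -0.27 to 0.97 for Irf4. The genotype change in unstimulated cells ranged from -0.25 to 0.093 for Id2, from -0.43 to 0.28 for Irf4 and from -0.98 to 0.018 for Irf8. After LPS it ranged from -0.67 to 1.08 for Irf4, from -0.86 to 0.092 for Irf8, from -1.20 to 0.20 for Cebpb and from -0.34 to 0.056 for Klf4. The interaction ranged from -0.39 to 0.67 for Irf8, from -0.31 to 0.57 for Batf3, from -0.0081 to 0.22 for Spi1, from -0.37 to 0.52 for Cebpa, from -0.49 to 1.13 for Irf4 and from -0.22 to 1.13 for Cebpb. Between genotypes, the log2 ratio of Irf4 to Irf8 ranged from -0.91 to 1.62 in unstimulated cells and from -0.89 to 1.98 after LPS, and that of Cebpb to Cebpa from -0.70 to 0.28 and from -0.15 to 0.79.

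With library size scaling, the level per kilobase was 4.27 for Zbtb46, 128 for Spi1 and 6.34 for Klf4 in unstimulated CD18fl/fl BMDCs, and 3.56 for Zbtb46, 178 for Id2 and 42.5 for Spi1 in LPS-treated cKO BMDCs.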
